A study of Mus musculus with 9 samples.

Results

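The GIMAP GTPases are a family of GTP-binding proteins whose mouse genes lie in a row on chromosome 6. Their expression was described in endothelial cells (ECs) of the mouse bone marrow (BM). The 8 genes Gimap1, Gimap3, Gimap4, Gimap5, Gimap6, Gimap7, Gimap8 and Gimap9 were found by name among the 46078 genes of the deposited read count table, and all 8 were present. The question put to them was how their RNA level, and the make-up of the family, differed between ECs with and without the surface protein Sca-1, which Ly6a encodes. RNA had been sequenced from cells of wild type mice of the B6 strain, sorted by flow cytometry as CD45-, Ter119- and CD31+. Of these, 4 libraries came from Sca-1+ cells and 5 from Sca-1- cells. The titles of Sca-1+ 13 and Sca-1- 10, 14 and 22 also hold the tag CD452 (in Sca-1- 10 without its letters), those of Sca-1+ 15 and 19 and Sca-1- 8 and 16 the tag wt, and that of Sca-1+ 7 neither. What the first tag marks is not stated, and the strain and genotype fields are the same for all 9. No treatment, age or sex is given in the labels, and it is not stated whether cells of several mice were pooled. Libraries are named here by fraction and the end number of their label, Sca-1+ 7, 13, 15 and 19 and Sca-1- 8, 10, 14, 16 and 22. Nothing in the labels says that each library is a separate mouse, so p-values measure the spread between these libraries, which may be partly technical.

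GIMAP proteins (GTPases of the immunity-associated protein family) carry a GTP-binding domain related to those of septins and dynamin-like proteins, and most of them sit on intracellular membranes such as the endoplasmic reticulum, lysosomes and mitochondria. They are known mainly from lymphocytes, where they govern survival and homeostasis. Several members are also expressed in endothelium, and Gimap5 is required in liver endothelium for a normal sinusoidal lining.

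The promoter letters of the members that the results turn on are shown first. The sequences are the 250 bases before the RefSeq transcript start (assembly GRCm38.p6), printed 5′ to 3′ on the strand of the gene, in lower case, with a searched motif in capitals where one occurred. Gimap6 and Gimap4 had the highest levels of the family, Gimap8 was close to absent in Sca-1- cells, and Gimap3 was close to absent in both fractions. The windows are, in this order, chr6:48708245-48708494 on the minus strand, chr6:48684328-48684577 on the plus strand, chr6:48646984-48647233 on the plus strand and chr6:48770852-48771101 on the minus strand.
Gimap6: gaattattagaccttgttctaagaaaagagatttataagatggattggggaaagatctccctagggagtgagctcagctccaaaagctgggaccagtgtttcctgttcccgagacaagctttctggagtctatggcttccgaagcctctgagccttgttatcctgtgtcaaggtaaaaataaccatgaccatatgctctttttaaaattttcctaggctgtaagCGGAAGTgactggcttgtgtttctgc
Gimap4: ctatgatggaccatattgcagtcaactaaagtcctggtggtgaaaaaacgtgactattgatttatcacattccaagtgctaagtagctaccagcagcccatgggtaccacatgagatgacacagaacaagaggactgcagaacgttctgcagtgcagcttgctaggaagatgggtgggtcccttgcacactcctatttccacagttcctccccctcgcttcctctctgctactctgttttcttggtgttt
Gimap8: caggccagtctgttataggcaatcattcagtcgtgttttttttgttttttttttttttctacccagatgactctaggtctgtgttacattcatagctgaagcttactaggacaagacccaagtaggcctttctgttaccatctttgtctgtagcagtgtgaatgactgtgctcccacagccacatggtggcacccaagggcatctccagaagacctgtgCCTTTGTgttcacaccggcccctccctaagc
Gimap3: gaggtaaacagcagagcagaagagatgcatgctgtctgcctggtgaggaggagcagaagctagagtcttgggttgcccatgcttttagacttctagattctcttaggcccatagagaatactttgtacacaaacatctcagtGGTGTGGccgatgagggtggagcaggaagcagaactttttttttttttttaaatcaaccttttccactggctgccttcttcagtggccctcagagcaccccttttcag
All 8 members had an entry in the promoter table, Gimap8 with 2 starts, which gave 9 windows. Motifs of 7 letters were searched on both strands in these and in all 32851 windows of the table. The ETS motif CGGAAGT occurred in the window of Gimap6, its first base 26 bases before the start, and in 4.92% of all windows. The other ETS form, AGGAAGT, occurred in the window of Gimap5, 45 bases before the start, and in 7.69% of all windows. ETS factors include several that are central to endothelial identity. The SOX motif ACAAAGG lay on the opposite strand in both windows of Gimap8, which share these bases, and in 5.08% of all windows. The KLF motif CCACACC lay on the opposite strand in the window of Gimap3 and in 6.52% of all windows. The RUNX motif TGTGGTT, the GATA motif AGATAAG and the AP-1 motif TGANTCA were in none of the 9 windows and in 4.4%, 2.74% and 6.75% of all windows. None of the 7 motifs was found in the window of Gimap4. A match is a run of letters and was not tested as a binding site.

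The cluster spans chr6:48647234-48770851 (GRCm38, GENCODE M21), 123.6 kb from Gimap8 at one end to Gimap3 at the other. Each member is an annotated protein-coding gene. Gimap8 (chr6:48647234-48660875), Gimap9 (chr6:48676129-48679114), Gimap4 (chr6:48684549-48692060), Gimap7 (chr6:48718621-48724636), Gimap1 (chr6:48739054-48743795) and Gimap5 (chr6:48746197-48754210) are read from the plus strand. Gimap6 (chr6:48701582-48708225) and Gimap3 (chr6:48764464-48770851) are read from the minus strand. Read assignment was uncertain for some of them. Exons of Gimap1 overlapped those of Gimap1os, a gene on the opposite strand, over 1107 bases or 36.0% of the Gimap1 exon length, and the strand setting of the counting is not given in the sources used here. The predicted read-through gene Gm28053 shares exon sequence with Gimap7, Gimap1 and Gimap5 on the same strand, but held only 7 counts over all 9 libraries. Of all stretches of 50 bases in Gimap3 transcripts, 7.52% also occurred in Gimap5, the only pair of members that shared any. For Gimap4, Gimap8 and Gimap9 no such stretch occurred in another gene.

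**Figure D1:**
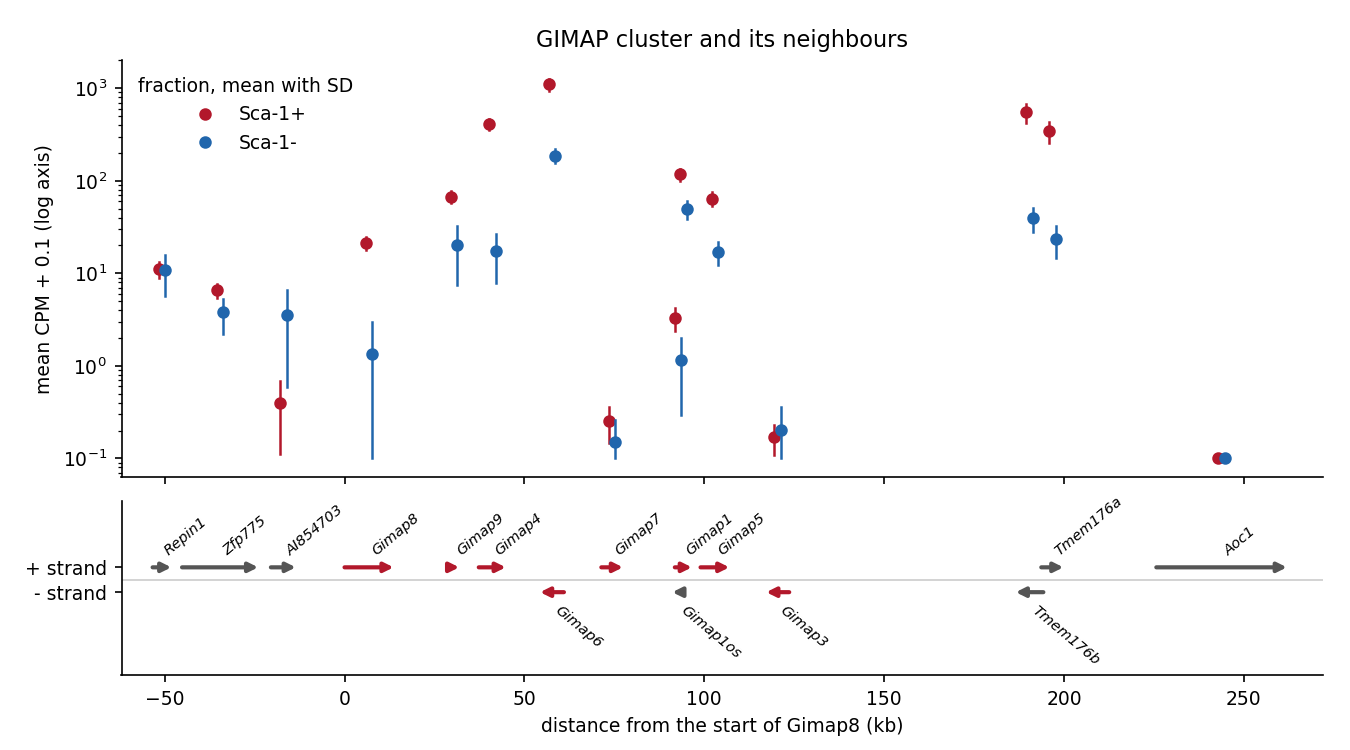
The upper panel plots the mean level in each fraction (CPM with TMM scaling, plus 0.1, log axis) against distance from the start of Gimap8 in kb, with bars of 1 SD over 4 Sca-1+ and 5 Sca-1- libraries. The lower panel shows the position and strand of the members in red and of other genes in grey. The members lie between 0 and 123.6 kb with mean levels from 0.0693 CPM (Gimap3) to 1101 CPM (Gimap6) in Sca-1+ cells, and Tmem176b and Tmem176a stand to the right of a gap with no member.

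Library depth was alike in the fractions, 23058385 to 24657204 counts in Sca-1+ libraries and 21581653 to 25959818 in Sca-1- libraries. The sort was visible in the counts. Levels are given as CPM, the share of reads scaled to library size and corrected by edgeR's TMM factors. Ly6a was at 1133 CPM ± 187 (SD, n = 4) in Sca-1+ and 0.678 CPM ± 0.524 (SD, n = 5) in Sca-1- libraries. The EC label was less well met by the Sca-1- libraries. Cdh5, the VE-cadherin gene that defines endothelium, was at 264 CPM ± 27.2 in Sca-1+ and 7.14 CPM ± 3.92 in Sca-1- libraries. Among 25 general endothelial genes, 21 were higher in Sca-1+ cells and 2 were lower. The 2 lower genes were Tal1 and Fli1, at log2 fold changes of -3.07 and -1.61. The 16 megakaryocyte genes examined summed to 44.99 to 96.3 CPM in Sca-1+ libraries and to 27380 to 119500 CPM in Sca-1- libraries. General leukocyte genes summed to 366 to 487 CPM and 3427 to 6664 CPM. In bulk RNA, fewer cells of a type and less RNA per cell cannot be told apart, which applies to every difference below. The running numbers that open the labels fall in separate series for the fractions, so anything tied to them cannot be told apart from Sca-1 status.

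As a family, GIMAP transcripts were more abundant in Sca-1+ ECs when libraries were scaled by TMM, by DESeq2 size factors, by upper quartiles or by library size alone. When libraries were scaled to general endothelial genes, 4 of the 6 testable members were lower in Sca-1+ cells, as were 13860 of all 15937 genes tested. The summed level was 1903, 2005, 1715 and 1483 CPM in Sca-1+ 7, 13, 15 and 19. It was 304, 310.3, 248, 317 and 282 CPM in Sca-1- 8, 10, 14, 16 and 22. Every Sca-1+ library thus stood above every Sca-1- library, at a mean of 1776 CPM ± 230 (SD, n = 4) against 292 CPM ± 27.9 (SD, n = 5). GIMAP reads made up 0.166% to 0.244% of the counts of a Sca-1+ library and 0.0180% to 0.0368% of those of a Sca-1- library.

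Enough reads for a test (edgeR's filterByExpr) were present for 6 members. Their differences were tested in edgeR by quasi-likelihood, in both directions, and p was adjusted by the Benjamini-Hochberg method over the 15937 genes that entered the fit. Gimap1, Gimap4, Gimap5, Gimap6, Gimap8 and Gimap9 were all higher in Sca-1+ cells under TMM scaling and 0 were lower, with adjusted p from 3.5e-05 to 0.0100. Of all genes tested, 44.8% passed in either direction, 23.3% higher and 21.4% lower in Sca-1+ cells. For the same 6 genes the libraries of the fractions did not overlap, as for 24.8% of all genes with every Sca-1+ library on top. Gimap8 passed the filter through its Sca-1+ counts, since only 2 of its 5 Sca-1- libraries held 10 or more. Gimap3 and Gimap7 did not pass and are described below by their counts. The median log2 fold change was 2.23 over the 6 tested members and 0.074 over all genes tested.

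**Figure D2:**
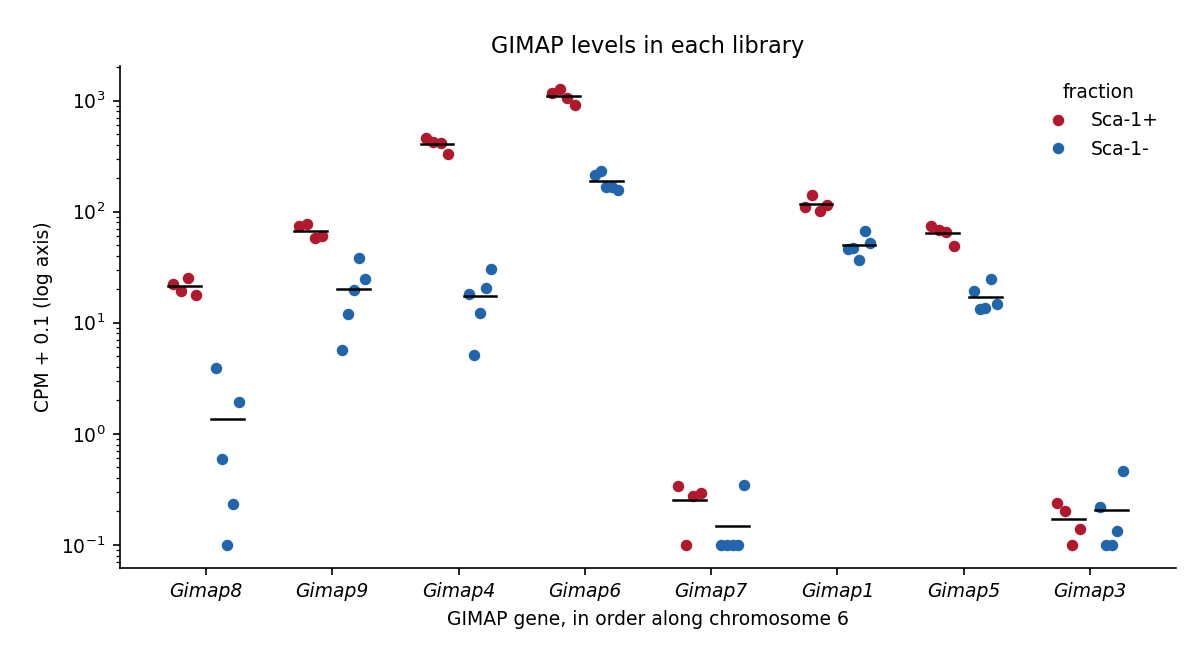
Level of each member in each library (CPM plus 0.1, log axis), in order along chromosome 6, with points for 4 Sca-1+ (red) and 5 Sca-1- (blue) libraries and a bar at the mean. Under this TMM scaling the points of the fractions do not overlap for Gimap8, Gimap9, Gimap4, Gimap6, Gimap1 and Gimap5, whereas Gimap7 and Gimap3 lie near the bottom in both. Scaled to endothelial genes, Gimap1, Gimap5, Gimap6 and Gimap9 were lower in Sca-1+ cells, as were 13860 of all 15937 genes tested.

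Gimap6 was the most abundant member in both fractions. Its product acts in autophagy and in lymphocyte survival. It was at 1167, 1278, 1046 and 913 CPM in Sca-1+ 7, 13, 15 and 19, and at 212, 233, 166, 167 and 158 CPM in Sca-1- 8, 10, 14, 16 and 22. The lowest Sca-1+ library was well above the highest Sca-1- library, and the 5 Sca-1- libraries were close together. The log2 fold change was 2.56 (SE 0.23, 95% confidence interval 2.05 to 3.06, adjusted p = 3.5e-05), a 5.89-fold difference. With libraries scaled to general endothelial genes it was -1.67 (adjusted p = 0.0072).

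Gimap4, whose product hastens the death of T cells and is among the better studied members, had the largest fitted difference, although the interval of Gimap8 contains it and Gimap8 was larger under limma voom, with the replicate block and without Sca-1- 8 (log2 fold change 5.02 against 4.52). Its levels in Sca-1+ 7, 13, 15 and 19 were 456, 419.7, 419 and 329 CPM. In Sca-1- 8, 10, 14, 16 and 22 they were 18.0, 5.03, 12.2, 20.3 and 30.1 CPM. Sca-1- 10 was lowest and Sca-1- 22 highest, and both were far under every Sca-1+ library. The log2 fold change was 4.56 (SE 0.46, 95% confidence interval 3.55 to 5.58, adjusted p = 5.5e-05), or 23.6-fold. Gimap4 was the only member that also passed the threshold as higher in Sca-1+ cells after scaling to general endothelial genes, at a log2 fold change of 0.70 (adjusted p = 0.0393). Among the endothelial genes themselves, Cdh5 was at 1.298 and Pecam1 at -3.714 under this scaling (adjusted p = 0.00191 and 0.00181). Per Cdh5 read, Gimap4 overlapped between the fractions, with a median of 1.6 in Sca-1+ and 2.27 in Sca-1- libraries. Whether Gimap4 was higher beyond endothelial content was not tested.

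Gimap8 encodes the longest protein of the family, with more than 1 GTP-binding domain. Its counts were 658, 569, 733 and 455 in Sca-1+ 7, 13, 15 and 19, or 22.4, 19.4, 25.3 and 17.6 CPM. The counts were 64, 7, 0, 4 and 45 in Sca-1- 8, 10, 14, 16 and 22, or 3.84, 0.489, 0, 0.133 and 1.83 CPM. Only Sca-1- 8 and 22 held more than a few reads, and a count of 0 at the depth of Sca-1- 14 allows up to 0.127 CPM. The log2 fold change was 4.09 with an SE of 1.05, the widest error of the family (95% confidence interval 1.76 to 6.41, adjusted p = 0.0095). After scaling to endothelial genes it was 0.11 (adjusted p = 0.917). The call was lost when only the 6 libraries with consecutive numbers were compared without pairing (adjusted p = 0.0777).

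Gimap9, a small member of little known function, was at 73.5, 77.3, 58.0 and 60.1 CPM in Sca-1+ 7, 13, 15 and 19. Its Sca-1- levels were the most spread of the well counted members, 5.59, 11.9, 19.5, 38.4 and 24.6 CPM in Sca-1- 8, 10, 14, 16 and 22. Sca-1- 16 came nearest to the Sca-1+ libraries without reaching them. The log2 fold change was 1.75 (SE 0.45, 95% confidence interval 0.74 to 2.75, adjusted p = 0.0100). It was -2.21 after scaling to endothelial genes (adjusted p = 6.3e-04). In the 6 libraries with consecutive numbers the call was lost, with an adjusted p of 0.0693 with the pairs as a block and 0.0750 without.

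Gimap1 is required for the survival of mature T and B cells. It was at 110.0, 142, 101 and 115 CPM in Sca-1+ 7, 13, 15 and 19 and at 45.7, 47.3, 36.9, 66.5 and 52.4 CPM in Sca-1- 8, 10, 14, 16 and 22. The fractions did not overlap, but the difference was the smallest of the 6, with a log2 fold change of 1.23 (SE 0.21, 95% confidence interval 0.77 to 1.70, adjusted p = 9.9e-04), or 2.35-fold. After scaling to endothelial genes it was -2.87 (adjusted p = 2.7e-05). Gimap1os, whose reads cannot be told apart from those of Gimap1 where the exons overlap, held 62 to 132 counts in Sca-1+ and 8 to 77 in Sca-1- libraries. Its log2 fold change was 1.59 (SE 0.57, adjusted p = 0.043), the fractions overlapped, and the call was lost when any library other than Sca-1- 16 was left out, with adjusted p up to 0.116.

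Gimap5 encodes a lysosomal member whose loss in rodents causes lymphopenia, and it was the only member that shared stretches of 50 bases with Gimap3. Its levels were 73.8, 68.6, 65.0 and 48.6 CPM in Sca-1+ 7, 13, 15 and 19. They were 19.2, 13.1, 13.6, 24.7 and 14.6 CPM in Sca-1- 8, 10, 14, 16 and 22. Sca-1+ 19 was the lowest Sca-1+ library and Sca-1- 16 the highest Sca-1- library, with no overlap. The log2 fold change was 1.91 (SE 0.25, 95% confidence interval 1.36 to 2.46, adjusted p = 2.2e-04), or 3.76-fold, and -2.16 after scaling to endothelial genes (adjusted p = 1.0e-04).

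Gimap7 and Gimap3 were at or near the floor of 3 counts in most libraries. Gimap7, whose product stimulates GTP hydrolysis by other members, held 7, 0, 5 and 5 counts in Sca-1+ 7, 13, 15 and 19. It held 6 counts in Sca-1- 22 and 0 in the other 4 Sca-1- libraries. Gimap3, which acts at intracellular membranes together with Gimap5, held 4, 3, 0 and 1 counts in Sca-1+ and 2, 0, 0, 1 and 9 counts in Sca-1- libraries. Sca-1- 22 was the library with the most Gimap3 and the most Gimap7 reads of its fraction. With no filter on low counts, edgeR's quasi-likelihood test gave a log2 fold change of 1.49 for Gimap7 (adjusted p = 0.464) and -0.55 for Gimap3 (adjusted p = 0.784), neither of which passed. A difference in these members was not detectable at this depth.

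Levels of different members were compared per kb of exon. In Sca-1+ cells the order was Gimap6 at 315 CPM per kb, Gimap4 at 221, Gimap9 at 41.0, Gimap1 at 38.0, Gimap5 at 15.4 and Gimap8 at 5.73, followed by Gimap7 and Gimap3. The library ranges of neighbours in this order were apart, except those of Gimap9 and Gimap1 and those of Gimap7 and Gimap3. In Sca-1- cells Gimap6 was again first, at 53.5 CPM per kb, and its range was apart from all others. It was followed by Gimap1 at 16.2, Gimap9 at 12.2, Gimap4 at 9.33 and Gimap5 at 4.10, and within these the range of each overlapped that of its neighbour. Gimap8 came after them at 0.34 CPM per kb, with a range apart from that of Gimap5. Gimap4 thus came directly after Gimap6 in Sca-1+ cells, apart from its neighbours, and after Gimap1 and Gimap9 in Sca-1- cells, where it overlapped them. The order of Gimap9 and Gimap1 in Sca-1+ cells depends on the length used. Per kb of the longest transcript, Gimap1 was at 72.4, Gimap9 at 48.6 and Gimap5 at 27.5 CPM there. Gimap1 may also hold reads of Gimap1os.

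The make-up of the family does not depend on how libraries are scaled, since each share is taken within a library. Gimap4 made up 34.7% ± 2.17 (SD, n = 4) of the summed CPM per kb in Sca-1+ libraries, where its share lay between 32.2% and 36.9%. It made up 9.66% ± 4.98 (SD, n = 5) in Sca-1- libraries, between 2.88% and 16.8%. The shares of Gimap1 ran the other way, 6.02% ± 0.90 against 16.8% ± 1.91, as did those of Gimap5, 2.42% ± 0.18 against 4.25% ± 0.89, both without overlap between the fractions. The shares of a library add up to the whole, so a smaller Gimap4 share by itself raises all others. A shift of Gimap1 or Gimap5 apart from that of Gimap4 was not tested. Gimap6 held 49.5% ± 1.43 in Sca-1+ and 56.4% ± 11.4 in Sca-1- libraries, with overlapping ranges. The ranges also overlapped for Gimap9 (6.44% ± 0.51 and 12.5% ± 6.93) and Gimap8 (0.906% and 0.356%). The size of a share depends on the exon lengths used. By reads alone, Gimap4 held 22.9% in Sca-1+ and 5.91% in Sca-1- libraries. Gimap1 held 6.62% and 16.95%, and Gimap5 3.59% and 5.79%, again without overlap. The 4 Sca-1+ libraries resembled each other closely in make-up and the 5 Sca-1- libraries did so less.

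**Figure D3:**
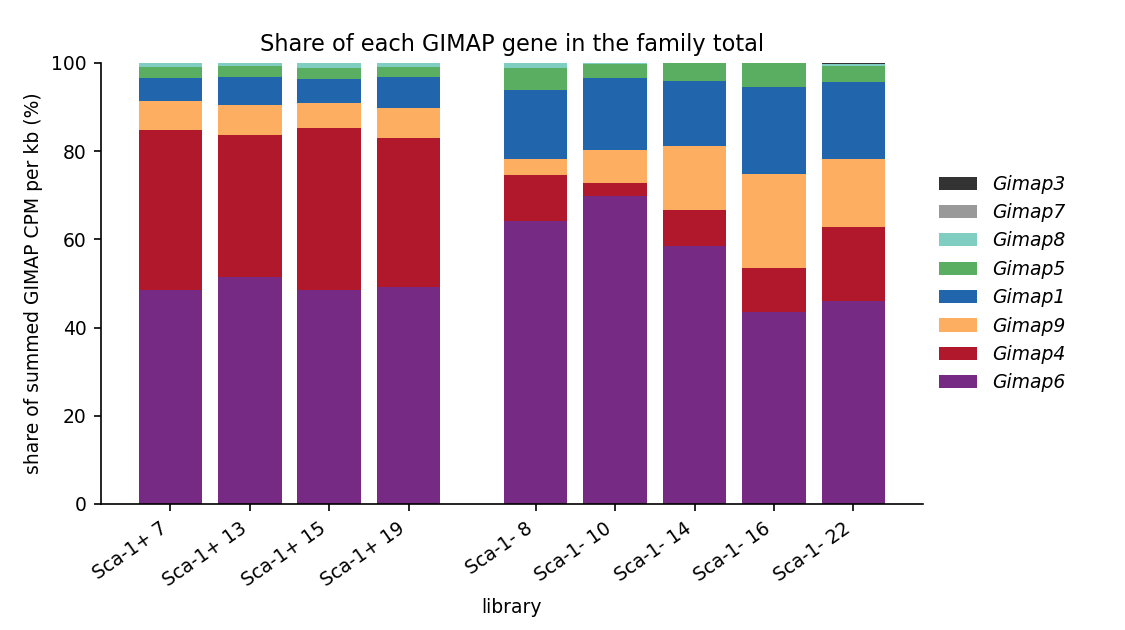
Share of each member in the summed GIMAP level (CPM per kb of exon, %) in each of 4 Sca-1+ and 5 Sca-1- libraries, stacked to 100%. The Gimap4 share in red lies between 32.2% and 36.9% in Sca-1+ and between 2.88% and 16.8% in Sca-1- libraries, and the Gimap1 share in blue is larger in every Sca-1- library.

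Because most general endothelial genes were themselves lower in Sca-1- libraries, each member was also expressed per Cdh5 read in the same library. These values were not tested. Sca-1- libraries held 35 to 396 Cdh5 counts and Sca-1+ libraries 6895 to 8589. Per Cdh5 read there were 1.19 to 1.82 Gimap4 reads in Sca-1+ and 1.55 to 4.11 in Sca-1- libraries, with overlap. There were 3.32 to 5.44 Gimap6 reads per Cdh5 read in Sca-1+ and 12.7 to 95.1 in Sca-1- libraries, without overlap. Gimap6 and Gimap4 therefore parted on this measure, Gimap4 following Cdh5 to within a few-fold and Gimap6 being less reduced than Cdh5 in Sca-1- cells. Gimap1 (0.340 to 0.605 against 5.06 to 19.4), Gimap5 (0.177 to 0.294 against 1.88 to 5.34) and Gimap9 (0.196 to 0.329 against 0.756 to 4.89) were, like Gimap6, higher per Cdh5 read in every Sca-1- library. Gimap8 lay between 0.0641 and 0.0895 reads per Cdh5 read in Sca-1+ and between 0 and 0.520 in Sca-1- libraries.

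Against the geometric mean of 25 general endothelial genes, Gimap4 was at 0.840 to 1.13 in Sca-1+ and 0.406 to 0.836 in Sca-1- libraries, just without overlap. Gimap6 was at 2.34 to 3.43 and 4.38 to 18.8 on this measure. Scaling the whole table to these genes moved the median log2 fold change of all genes from 0.074 to -4.03, and scaling by library size alone moved it to 0.43. A scaling by its construction moves members and the all-gene median nearly together. A member's distance from that median is thus nearly fixed in advance, and its stability is not a separate test. The distance of Gimap9, for example, was 1.53 with library size only and 1.67 under TMM scaling. Under endothelial scaling the distance was 1.16 for Gimap1, 4.73 for Gimap4, 1.87 for Gimap5, 2.36 for Gimap6, 4.14 for Gimap8 and 1.82 for Gimap9, all on the log2 scale.

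**Figure D4:**
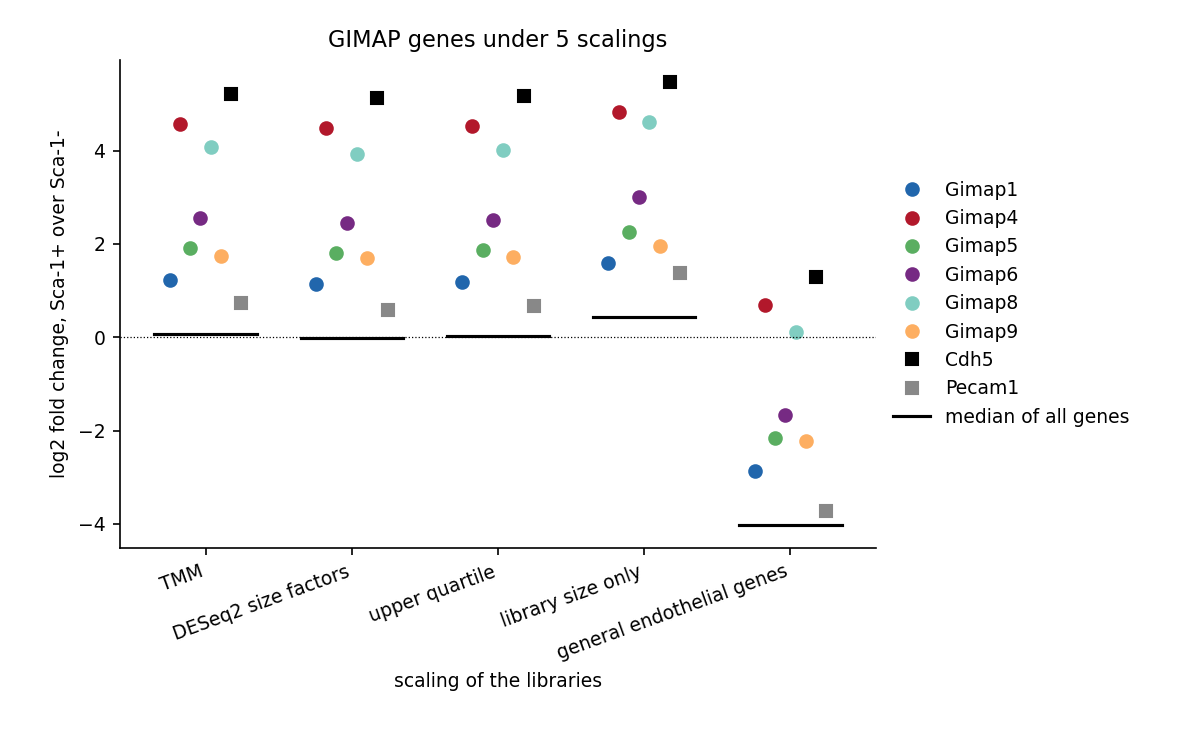
Log2 fold change (Sca-1+ over Sca-1-) of the 6 tested members (circles), Cdh5 and Pecam1 (squares) and the median of all genes (bar) under 5 scalings of the 9 libraries. Each scaling moves the members and the median of all genes together, and under endothelial scaling Gimap1, Gimap5, Gimap6 and Gimap9 fall below 0, to between -2.87 and -1.67, while Gimap4 is at 0.70 and Gimap8 at 0.11.

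Lymphocytes, the cells best known for GIMAP expression, were followed through marker lists. The 14 T cell genes summed to 13.2 to 23.9 CPM in Sca-1+ and 47.4 to 93.3 CPM in Sca-1- libraries. Cd3d, Cd3e, Cd3g and Cd8a, which encode parts of the T cell receptor complex and its CD8 coreceptor, were at 0 counts in all 4 Sca-1+ libraries, and Cd8a also in all 5 Sca-1- libraries. Sca-1- 14 held 47 Cd3e, 16 Cd3g and 80 Cd8b1 counts, and every other library at most 2 of each. Trac, the T cell receptor alpha chain, was at 43, 2, 45 and 34 counts in Sca-1+ 7, 13, 15 and 19 and 0, 0, 27, 14 and 0 in the Sca-1- libraries. It did not pass in edgeR (log2 fold change 1.71, SE 1.32, adjusted p = 0.318), and the fractions overlapped. Icos was at 0 to 22 counts in Sca-1+ and 0 in every Sca-1- library, and Cd4 at 7 to 12 against 0 to 14 counts. Of the 14 genes, 5 were tested. Lck, a kinase of T cell receptor signalling, was higher in Sca-1+ cells at 301 to 581 counts against 9 to 37 and supplied most T cell list reads there. Cd28, Trbc2 and Ubash3a were lower in Sca-1+ cells, and Ubash3a supplied most of the list in Sca-1- libraries. The 10 NK cell genes summed to 0.579 to 0.813 CPM in Sca-1+ and 17.7 to 76.3 CPM in Sca-1- libraries. B cell genes summed to 117 to 265 CPM and 16.8 to 368 CPM. In Sca-1+ libraries nearly all of this was Ebf1, also known outside B cells. In Sca-1- 22, the library with the most Gimap3 and Gimap7 reads of its fraction, Cd79a, a part of the B cell receptor complex, was at 1384 counts, above all other libraries. The part of lymphocyte RNA in the Sca-1- GIMAP levels was not tested. Sca-1+ 19 and Sca-1- 22, the libraries with the highest B cell list of each fraction, were left out in an alternative chosen after seeing the data. All 6 tested members were higher in Sca-1+ cells in that fit under TMM scaling, which does not measure the part of lymphocyte RNA.

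Sca-1- 8 and 10, which held the most megakaryocyte reads (94250 and 119500 CPM, against 27380 to 56430 CPM in the other 3), also had the highest Gimap6 levels of their fraction under TMM scaling. Their TMM factors were the lowest, 0.671 and 0.581, and in reads they held the fewest for Gimap6, 3523 and 3330 counts against 3872 to 5022. The same 2 libraries had the fewest Gimap9 reads, 93 and 171 counts against 460 to 1155. The part of megakaryocyte RNA in these levels was not tested. In Sca-1+ 15 and Sca-1- 16, whose labels carry the same further number, Gimap6 was at 1046 and 167 CPM and Gimap4 at 419 and 20.3 CPM, a difference in the direction of the whole set. Within the libraries tagged CD452, Gimap6 was at 1278 CPM in Sca-1+ and 158 to 233 CPM in Sca-1- cells and Gimap4 at 419.7 and 5.03 to 30.1 CPM. Within those tagged wt, Gimap6 was at 913 to 1046 and 167 to 212 CPM and Gimap4 at 329 to 419 and 18.0 to 20.3 CPM. The fractions did not overlap for any of the 6 tested members under TMM scaling, so any subset with both fractions gives this direction. The split by tag is therefore not a separate test, and an effect of the tag was not tested. Sca-1+ 13 was the only Sca-1+ library with the CD452 tag.

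Proteins reported to bind or act with GIMAP proteins were followed as a list of 10 genes, of which 9 were tested. Of these, 2 were higher, 2 were lower and 5 did not pass, a share of calls near the 44.8% of all genes tested. Their median log2 fold change was -0.18 under TMM scaling. After scaling to endothelial genes 9 were lower, as were 13860 of all 15937 genes tested. Among the BCL2 family, which sets the threshold for apoptosis, Bcl2l11 (the pro-apoptotic BIM) was at 23.8 CPM ± 7.27 in Sca-1+ and 6.60 CPM ± 3.60 in Sca-1- libraries, without overlap, a log2 fold change of 1.85 (SE 0.41, adjusted p = 0.0042). Bcl2l1 (the pro-survival BCL-XL) was at 88.1 CPM ± 28.8 against 792 CPM ± 549, a log2 fold change of -3.17 (SE 0.56, adjusted p = 0.0013). BCL-XL is known as the chief survival factor of platelets. Sca-1- 8 and 10, first in megakaryocyte reads, were also first in Bcl2l1, at 1056 and 1603 CPM. Their TMM factors were the lowest, which raises their CPM. In reads they held 17573 and 22960 Bcl2l1 counts, against 7585 to 15777 in the other Sca-1- libraries. The part of megakaryocyte RNA in these levels was not tested. Bcl2 passed at a log2 fold change of 1.12 (adjusted p = 0.0385), with overlapping fractions, and the call was lost without Sca-1+ 7, 13 or 15 or Sca-1- 8, 10 or 14, with adjusted p from 0.0507 to 0.114. Bax, a pro-apoptotic member, was at 151 and 121 CPM and did not pass (log2 fold change 0.33, adjusted p = 0.214).

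Among the partners that act in autophagy, Gabarapl2, reported to bind Gimap6, was at 57.5 CPM ± 5.97 in Sca-1+ and 65.0 CPM ± 23.5 in Sca-1- libraries (log2 fold change -0.18, 95% confidence interval -0.80 to 0.45, adjusted p = 0.635). Gabarapl1 was lower in Sca-1+ cells at 90.6 against 278 CPM (log2 fold change -1.62, adjusted p = 0.0151). Gabarap and Map1lc3b, which coat autophagosomes, did not pass at -0.49 and 0.63 on the log2 scale (adjusted p = 0.180 and 0.0686). Gsk3b, a kinase tied to Gimap5 in lymphocytes, had a log2 fold change of -0.95 (adjusted p = 0.107). Gata4, a transcription factor tied to Gimap5 in liver sinusoidal endothelium, was at 0 counts in every library.

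**Figure D5:**
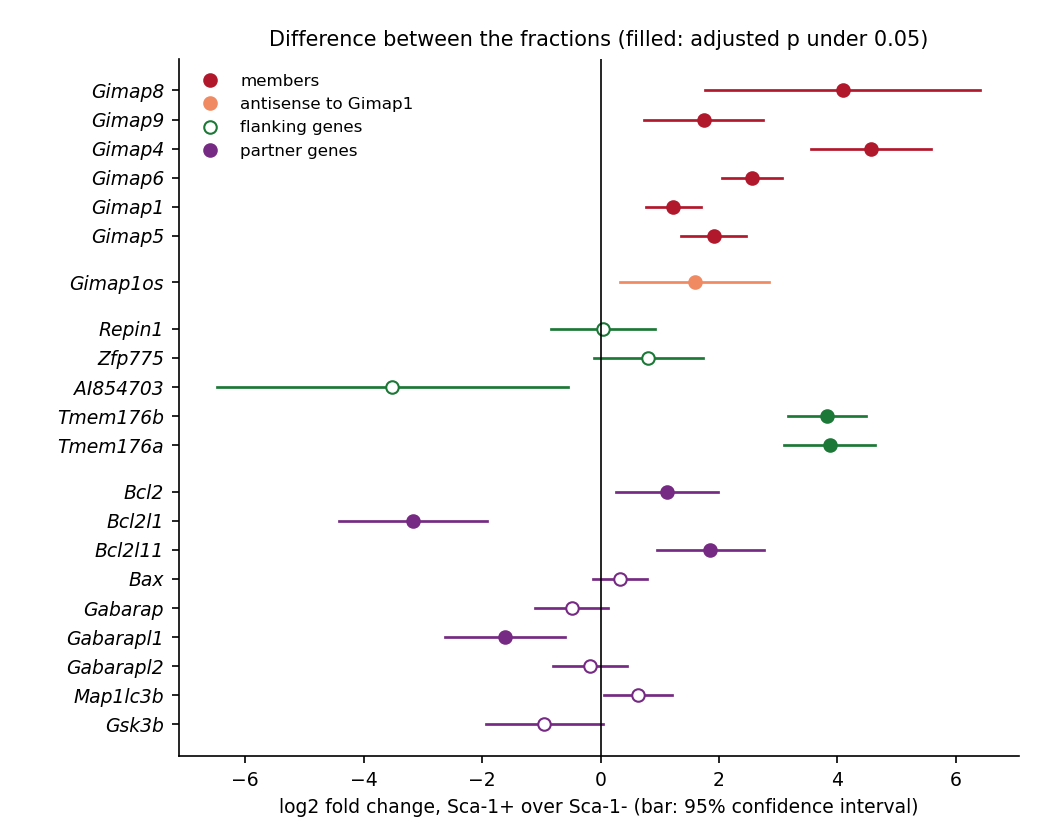
Log2 fold change (Sca-1+ over Sca-1-, TMM scaling) with its 95% confidence interval for the 6 tested members, Gimap1os, 5 flanking genes and 9 partner genes, filled where the adjusted p was under 0.05. The members lie between 1.23 and 4.56, Tmem176b and Tmem176a at 3.82 and 3.87, and the partners between -3.17 and 1.85. Scaled to endothelial genes, 4 members and both Tmem176 genes fall below 0, and the median of all genes falls to -4.03.

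The cluster was set beside its chromosomal neighbours, the 5 protein-coding genes nearest on each side. Of these 10 genes, 8 were in the table and 5 were tested. Tmem176b and Tmem176a are paired membrane protein genes whose nearer ends lie 62.97 and 70.1 kb beyond Gimap3. Both were higher in Sca-1+ cells under TMM scaling, with log2 fold changes of 3.82 (SE 0.30, adjusted p = 2.0e-05) and 3.87 (SE 0.35, adjusted p = 3.6e-05). After scaling to endothelial genes they were at -0.19 and -0.11. Tmem176b was at 553 CPM ± 129 in Sca-1+ and 39.0 CPM ± 11.04 in Sca-1- libraries, without overlap. Exons of these 2 genes overlap on opposite strands, so their reads may be shared. On the other side Repin1, a zinc finger gene, was at 10.9 and 10.6 CPM (log2 fold change 0.04, 95% confidence interval -0.84 to 0.92, adjusted p = 0.946). Zfp775 and AI854703 did not pass (log2 fold change 0.81 and -3.52, adjusted p = 0.139 and 0.0537). Aoc1 and Doxl2 were at 0 counts in every library, and 1600015I10Rik, with 80 counts in Sca-1+ and 0 in Sca-1- libraries, was not tested.

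Genes whose centred log2 CPM over the 9 libraries lay nearest to the mean of the 6 tested members were taken by root mean square distance. The nearest 5 outside the family were Elk3 at a distance of 0.193, Tubb6 at 0.212, Adamts7 at 0.223, Trim3 at 0.240 and Tsen34 at 0.241. Elk3 encodes an ETS factor, Tubb6 a beta-tubulin and Adamts7 a secreted metalloprotease. Their log2 fold changes lay between 2.49 and 2.98, and the libraries are 2 clusters, so the distance mostly reflects this one difference. Of the members themselves, Gimap6 was nearest to the family mean at 0.430, with 118 genes outside the family nearer, and Gimap8 farthest at 1.70.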

How the data were processed

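Read counts of 9 RNA-seq libraries from sorted BM ECs were analysed. The authors deposited whole-number read counts per Ensembl gene, not normalized, and the submitters' processing notes name STAR, featureCounts and the mm10 build, with roles, versions and strand setting not given in the sources used here. Libraries were made from 2 ng of RNA with a SMART-Seq v4 kit without molecular identifiers. PCR copies are thus counted, and the floor of 3 counts covers counting error only. Depth was 21581653 to 25959818 counts per library.

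Groups came from the labels. Counts were tested in edgeR 4.0.16 (R 4.3.3) with filterByExpr at a minimum count of 10, TMM scaling and the quasi-likelihood F test, two-sided, without covariates, with Benjamini-Hochberg adjustment over 15937 genes and a threshold of 0.05. The common dispersion was 0.301. CPM used TMM-scaled library sizes, and centred log2 CPM a prior count of 2. The edgeR step was tested on simulated data. DESeq2 1.42.0 and limma 3.58.1 served as alternatives, beside other scalings, filters, the replicate block and leaving out libraries. Gene positions and overlaps were taken from GENCODE M21 (45229 of 46078 identifiers matched) and promoter sequences from RefSeq. No 2 libraries of a fraction were copies (chi-square per degree of freedom 36.8 to 538). Genes named are all members, all partner and flanking genes, Ly6a, Pecam1, Cdh5 and Ptprc, at most the 4 highest genes of each other list and the 5 nearest genes; the lymphocyte receptor genes, Cd79a and genes given as the exceptions of a list were named after their values were seen. The members and all lists were chosen with earlier results of these data known. Lists are described by counts and medians, without a test of their own.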

Additional observations from a re-analysis of the deposited data

Results flagged for a closer look

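In groups of 4 or 5 libraries, 2 of 58 groups of values held a library set apart from the rest by Dixon's criterion, and chance flags about 1 in 20 groups. Both concerned Gimap7, at counts near the floor. The log2 CPM of Gimap7 was -3.63 in Sca-1+ 13, which had 0 counts, and -1.98 to -1.65 in the other Sca-1+ libraries, which had 5 to 7 counts. It was -1.62 in Sca-1- 22, with 6 counts, and -3.63 in the other 4 Sca-1- libraries, with 0 counts.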

How the results depend on the processing

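Over 21 alternatives to the reported fit (3 other scalings, filters, tests, blocks and left-out libraries), Gimap1, Gimap4, Gimap5 and Gimap6 passed in 21, Gimap8 in 20 (not in 6 unpaired libraries) and Gimap9 in 19 (not in the same 6, with or without the block), all with the same direction. Log2 fold changes ranged over 1.04 to 1.58 for Gimap1, 4.27 to 4.96 for Gimap4, 1.74 to 2.26 for Gimap5, 2.40 to 3.01 for Gimap6, 3.66 to 6.11 for Gimap8 and 1.44 to 2.12 for Gimap9. All 6 passed in each of 9 fits without 1 library.

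Scaling to 25 general endothelial genes, which by its construction lowers the median of all genes to -4.03, turned most results. Of all 15937 genes tested, 276 were then higher and 13860 lower, 1.95% of the calls being higher against 52.1% in the reported fit and 63.1% with library size only. Of the members 1 was higher and 4 lower, of the partners 0 and 9, of the flanking genes 0 and 3, and of the other lists 22 and 90. Log2 fold changes became -2.87 for Gimap1, -2.16 for Gimap5, -1.67 for Gimap6, -2.21 for Gimap9, -2.35 for Gimap1os, -3.003 for Bcl2, -2.15 for Bcl2l11, -3.90 for Bax, -3.66 for Map1lc3b, -3.11 for Zfp775, -3.96 for Repin1, -0.19 for Tmem176b and -0.11 for Tmem176a. Mean Gimap6 became 233 CPM in Sca-1+ and 740 CPM in Sca-1- cells. With library size only, 4 partners were higher, Gabarap turned to 0.0090 and Gabarapl2 to 0.32, mean Gimap6 in Sca-1+ cells was 1309 CPM, and the family sum was 2111 CPM in Sca-1+ and 264 CPM in Sca-1- cells. By reads in place of reads per kb, the Gimap6 share in Sca-1+ cells was 61.9%.

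The end numbers of the labels differ between the fractions, although the labels of Sca-1+ 15 and Sca-1- 16 carry the same further number. Treating consecutive numbers (7 and 8, 13 and 14, 15 and 16) as pairs, the replicate block in 6 libraries called 2265 genes higher and 2075 lower, and 0 partners higher and 1 lower, whereas the same 6 unpaired called 1 and 1. The deviations of these pairs correlated at 0.147, 0.148 and 0.042, against -0.191 to 0.065 in other combinations. The pairs 7 and 8 and 13 and 14 thus stood above every other combination, and 15 and 16 did not. Because not all were over 0.1, the reported fit was unpaired, but whether the numbers mark pairs was not settled. With libraries 15 and 16 as a block 1 partner was higher. Without 1 library, 1 to 2 partners were higher (1 without Sca-1+ 7, 13 or 15 or Sca-1- 8 or 14), and 0 to 1 flanking genes were lower (1 without Sca-1- 8). AI854703 also passed as lower under a filter of 1 CPM in 4 libraries and under DESeq2's Wald test, 1 flanking gene in each. Without Sca-1+ 19 and Sca-1- 22, an alternative chosen after seeing the data as was the level per Cdh5 read, 1 partner was lower. Repin1, near 0 in the reported fit, was at -0.018 and -0.020 with DESeq2 size factors and the Wald test, and between -0.23 and 0.25 without 1 library. At a prior count of 0.5, 2 of the 5 nearest genes were shared. The cause was not tested for any of these shifts. Depth limits Gimap3 and Gimap7, with at most 9 and 7 counts in a library.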

Other observations

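Other GTPase families were read beside the GIMAP genes. Of 18 interferon-inducible GBP and IRG genes, which act against intracellular pathogens, 13 were tested in edgeR. Of these, 11 were higher in Sca-1+ cells, 1 was lower and 1 did not pass, with a median log2 fold change of 3.21. Of all genes tested, 44.8% passed and 23.3% were higher. Iigp1 was at 750.2 CPM ± 521 (SD, n = 4) in Sca-1+ and 10.6 CPM ± 9.61 (SD, n = 5) in Sca-1- libraries. Irgm1 was at 244 CPM ± 148 and 38.9 CPM ± 18.8. The member that was lower was Igtp, at 188 CPM ± 130 in Sca-1+ and 1724 CPM ± 1408 in Sca-1- libraries, whose exons overlap those of Irgm2 on the same strand. Sca-1+ 19 had the highest sum of this list in its fraction, 3997 CPM against 1194 to 1920 CPM, and the lowest GIMAP sum, 1483 CPM.

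Septins, cytoskeletal GTPases whose GTP-binding domain is related to that of GIMAP proteins, were read in the same way. Of 10 tested septin genes, 2 were higher in Sca-1+ cells, 2 were lower and 6 did not pass, a share of calls near the 44.8% of all genes tested, with a median log2 fold change of -0.36. Sept4 and Sept10 were higher, at log2 fold changes of 4.44 (SE 0.39) and 4.03 (SE 0.57). Sept9 was lower at -2.69 (SE 0.43), from 41.0 CPM ± 6.60 in Sca-1+ to 266 CPM ± 149 in Sca-1- libraries. Sept7, the most abundant, was at 645 CPM ± 43.6 and 597 CPM ± 166, with overlapping fractions.

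All list counts here are under TMM scaling, where the lists together held 61 higher and 59 lower genes, against 22 and 90 after scaling to general endothelial genes. Under that scaling 13860 of all 15937 genes tested were lower. Among the EC lists, all 14 arterial genes were higher in Sca-1+ cells under TMM scaling, with a median log2 fold change of 4.78. Of 13 tested sinusoidal genes, 8 were higher and 2 were lower, with a median log2 fold change of 2.52. The 2 lower genes were Lyve1 and Clec4g, at log2 fold changes of -6.25 and -8.02. Of the blood cell lists, 16 of 16 megakaryocyte, 14 of 16 general leukocyte and 8 of 11 erythroid genes were lower in Sca-1+ cells, and of 10 neutrophil genes 1 was lower and 0 were higher. The neutrophil genes summed to 793 CPM in Sca-1+ 19, against 8.25 to 56.85 CPM in the other Sca-1+ libraries. In Sca-1- libraries they summed to 139 to 766 CPM. Of 10 tested stem and progenitor genes 3 were higher and 4 lower. Pecam1, which encodes the CD31 used in the sort, did not pass (log2 fold change 0.74, adjusted p = 0.247 in edgeR), and Ptprc, the CD45 gene, was lower in Sca-1+ cells (log2 fold change -5.10, adjusted p = 0.0069).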
